A study of Mus musculus with 6 samples.

Results

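The syndecans (Sdc1 to Sdc4) and the glypicans (Gpc1 to Gpc6) are the families of heparan sulfate proteoglycans that sit on the cell surface. All non-control probes that carry 1 of these 10 gene names were taken from the arrays, which gave 14 probes for the 10 genes among 61307 probes for 50090 gene names. Sdc2, Sdc3, Sdc4 and Gpc6 had a pair of probes each, called here the brighter and the weaker by their mean log2 signal over the 6 arrays, and the other 6 genes had 1 probe.

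The study asked which genes change when SIRT7, a nucleolar NAD-dependent deacetylase, is overexpressed in NIH3T3 cells, an established line of mouse embryonic fibroblasts. GFP cells carried a retroviral vector for GFP alone. LT7 and ST7 cells carried the same vector (pCX4Neo) for SIRT7 fused to GFP, and all lines were selected for the vector and cloned. LT7 (long cells overexpressing SIRT7) and ST7 (small cells overexpressing SIRT7) were separated with cloning cylinders from confluent SIRT7 cultures, where small cells formed compact colonies among long ones, and both were then taken through single-cell cloning, so that each line stands for cloned cells rather than for the transduced population. RNA of 2 passages of each line was hybridized to 1-colour Agilent arrays, 6 in all.

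A syndecan has a single membrane-spanning helix and a short cytoplasmic tail, and its chains are borne far from the membrane, while a glypican is held in the outer leaflet by a glycosylphosphatidylinositol anchor. The heparan sulfate chains of both bind growth factors, matrix proteins and enzymes, and syndecans act with integrins in adhesion. Fibroblasts use Sdc2 and Sdc4 in matrix contacts, and Sdc1 is best known from epithelia and plasma cells. Glypicans tune the spread of Hedgehog, Wnt and fibroblast growth factor ligands.

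The arrays labelled ST7 stood apart from the others before any scaling. Their 75th percentile of signal was 16.3 and 17.1, against 317 to 384 on the other 4 arrays, and the share of probes well above background was 25.5% and 26.4%, against 47.4% to 57.5%. The authors' normalization subtracts each array's 75th percentile, which raised every log2 change of ST7 against GFP by 4.40, and moved the median of all probes from -0.68 as scanned to 3.72. Other scalings placed that median at 1.78 (a percentile of only those probes that stood well above background on every array), 0.37 (quantile normalization) and -0.49 (5 spike-in RNAs). Members are therefore described below on both scales in ST7 against GFP, after the shift and as scanned, without scaling. For a gene outside the members, a change given without a scale is after the shift. As scanned, such a log2 change of ST7 against GFP lies 4.40 lower. The brighter Sirt7 probe gave 3125 and 2480 in GFP, 3633 and 2782 with LT7, and 2.85 and 3.28, not well above background, on the arrays labelled ST7. Where these probes lie on the transcript is not known here, and whether they read the SIRT7 transgene was not tested, so that they check neither the LT7 nor the ST7 label fully. For the protein, the study reported by immunoblot no significant difference in the SIRT7 fusion between LT7 and ST7 cells. It also saw the fusion in the nucleoli of both lines by microscopy. All statements on ST7 are on the arrays so labelled. LT7 replicate 1 was read in a scan of its own, where the mean log2 of the spike-in RNAs was 12.9, against 8.47 to 8.75 on the other arrays. Of 12 fibroblast markers, all 12 were well above background on both arrays of GFP and of LT7, and 4 (Col1a1, Col1a2, Vim and S100a4) on both ST7 arrays. Their summed signal was 416476 and 403739 on the GFP arrays, 443405 and 437484 on those of LT7, and 15070 and 16613 on those of ST7. Of 12 epithelial markers, both ST7 arrays held Epcam, Krt18, Cldn3 and Dsp well above background and neither held 7 others, Cdh1 among them, and the summed signal was 223 and 129 on the GFP arrays, 204 and 159 on those of LT7, and 2230 and 2041 on those of ST7. Krt18 alone gave 1881 and 1755 of the ST7 sums, Cldn3 was 38.7 and 32.3 in GFP beside 44.5 and 39.1 in ST7, and Krt8 was 123 and 62.2 in GFP beside 15.3 and 5.82 in ST7. By RT-PCR and immunofluorescence the study reported E-cadherin (Cdh1) and occludin (Ocln) in ST7 cells alone. On the arrays both were among the 7 not well above background there. Of 13 genes used by every cell, 11 kept a signal well above background on each ST7 array. Against GFP, 7 were called lower and 0 higher as scanned, with a median change of -0.90. After the shift 9 were called higher and 3 lower, with a median of 3.50. Hprt1 went from a mean of 18882 in GFP to 3.58 and B2m from 13766 to 3.11, both not well above background, and Rplp0 from 64429 to 19.0 and 37.2, whereas Eef1a1 was 65522 in GFP and 65833 in ST7. None of 6 myeloid or 5 endothelial markers was well above background on an ST7 array. The part of these differences in the results below was not tested, and fewer cells of a type cannot be told apart from less RNA per cell.

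Each probe is a strand of 60 bases that pairs with the labelled copy of the transcript. The last 30 bases of 9 of the probes are shown because the results turn on them, and because members of a pair that disagree read different stretches of the transcript. Capitals mark the polyadenylation hexamers AATAAA or ATTAAA, which stand close before the end of a transcript.
Sdc1: gtaagtaggctggctagtccaggatactgt
Sdc2 (brighter): attacagctgtaattcaccatgttaaaagg
Sdc2 (weaker): gagcactgaacttttcaaAATAAAgctttg
Sdc3 (brighter): ttctttggtcccattccctccagcccgggg
Sdc3 (weaker): ggaggagagggtcagatggataaagataaa
Sdc4 (brighter): acaaaatgctcagtcaccatcccccgggca
Sdc4 (weaker): accagtttagatcctgtagtaaacatgtcc
Gpc1: gtccttgtatgaATTAAAggctggggacct
Gpc4: aactgtagttagttgtgcattggtgatctt
The weaker Sdc2 probe and the Gpc1 probe were the only ones of the 14 with such a hexamer in their 60 bases, searched on the probe's own strand, and 8.55% of all probes held one. No pair of probes of a gene shared a run of more than 5 bases, so that the pairs read separate stretches. The Sdc3 pair differed in base composition, with 60% of G and C in the brighter probe and 38.3% in the weaker, against a median of 43.3% over all probes. Each of the 14 sequences stood on the array under 1 probe name.

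The RefSeq promoter table of GRCm38.p6 held 7 of the 10 genes. The 250 bases before the start of Sdc1, Sdc4 and Gpc4 are shown, 5′ to 3′ in the direction of the gene, since these genes were bright in GFP cells and kept different shares of their signal in ST7. Capitals mark the GC box GGGCGG on either strand, a site of the Sp1 family of factors.
Sdc1, chr12:8771146-8771395, plus strand: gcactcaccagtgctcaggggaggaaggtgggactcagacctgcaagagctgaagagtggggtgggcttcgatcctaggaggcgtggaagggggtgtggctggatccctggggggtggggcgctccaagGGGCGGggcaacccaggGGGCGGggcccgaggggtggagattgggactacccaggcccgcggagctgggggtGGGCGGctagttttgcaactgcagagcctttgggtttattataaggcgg
Sdc4, chr2:164443189-164443438, minus strand: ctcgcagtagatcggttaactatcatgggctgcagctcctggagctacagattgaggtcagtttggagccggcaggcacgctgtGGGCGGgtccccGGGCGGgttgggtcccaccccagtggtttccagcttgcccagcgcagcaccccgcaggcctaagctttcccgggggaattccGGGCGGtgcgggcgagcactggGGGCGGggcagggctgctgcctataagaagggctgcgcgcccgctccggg
Gpc4, chrX:52164924-52165173, minus strand: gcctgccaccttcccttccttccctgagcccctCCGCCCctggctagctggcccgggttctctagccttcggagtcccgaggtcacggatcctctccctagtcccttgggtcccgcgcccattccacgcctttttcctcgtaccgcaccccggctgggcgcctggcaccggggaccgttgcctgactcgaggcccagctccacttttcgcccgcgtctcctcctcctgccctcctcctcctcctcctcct
The box was found 3 times before Sdc1, 4 times before Sdc4 and 1 time before Gpc4, and all 7 promoters held at least 1, as did 32.7% of the 32851 promoters of the table. The TATA box letters TATAAA, on either strand, were found before Gpc5 alone of the 7, and before 12.4% of all promoters. These matches are descriptions of the sequence, and binding was not measured.

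**Figure D1:**
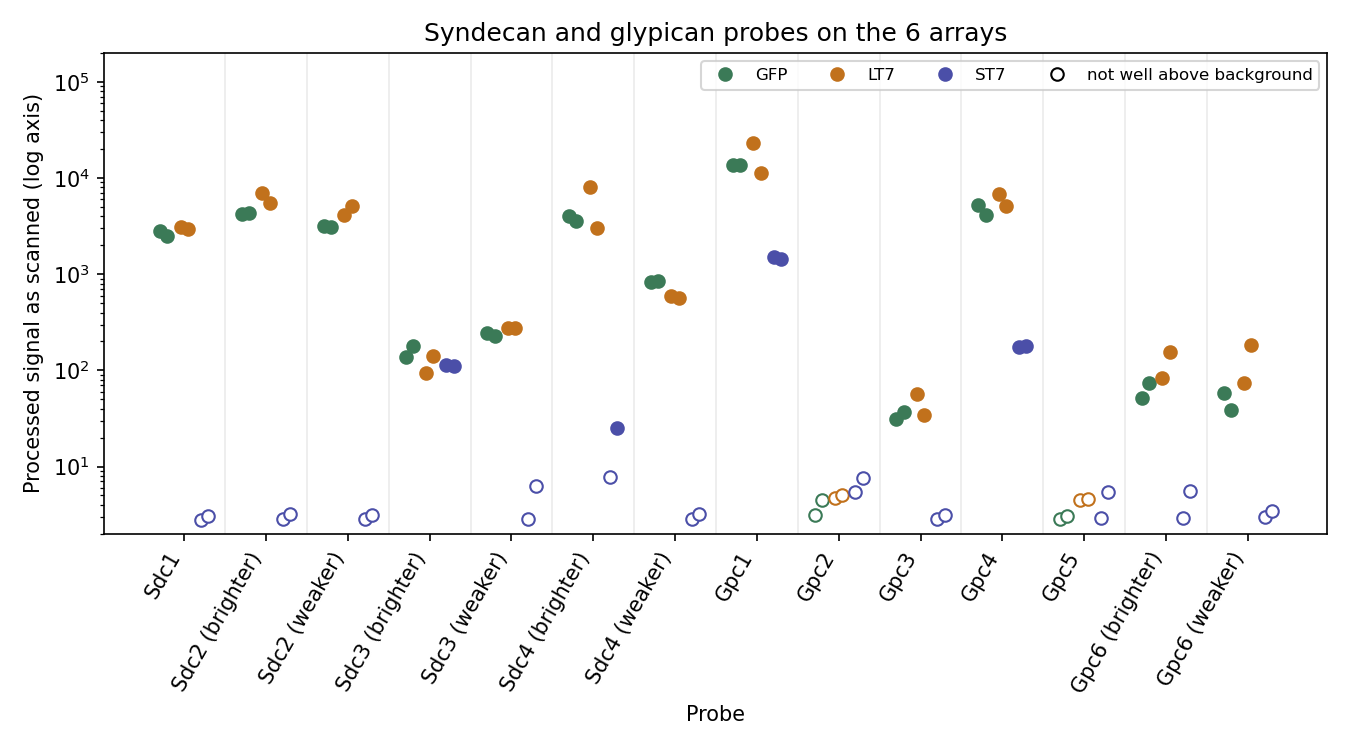
Processed signal as scanned (log axis) of the 14 syndecan and glypican probes on each of the 6 arrays, with filled points for signals well above background and open points for the others. Gpc1, Gpc4 and the brighter Sdc3 probe have filled points on both ST7 arrays, and Gpc2 and Gpc5 have open points on all 6.

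Of the 14 probes, 12 were well above background on all 4 GFP and LT7 arrays. On the ST7 arrays 3 of these 12 stayed well above background on both, 1 on a single array and 8 on neither (66.7%). Among all 26925 probes well above background on the GFP and LT7 arrays, 53.1% were on neither ST7 array, and 48% among the 10383 of them whose mean GFP signal was over 1000. The members kept on both ST7 arrays were the brighter probe of Sdc3 and the probes of Gpc1 and Gpc4. No member probe was saturated. The values below are given gene by gene, and since a probe's brightness depends on its sequence, no gene's level is set against another's.

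Sdc1 (NM_011519), located on chromosome 12 at 8771396 to 8793716 of GRCm38.p6, encodes syndecan-1. Its signal was 2841 and 2487 on the GFP arrays, 3113 and 2922 on those of LT7, and 2.76 and 3.05 on those of ST7. Both LT7 values lay above both GFP values, and the ST7 values were not well above background. GFP averaged 2664 ± 251 (SD, n = 2), LT7 3018 ± 135 and ST7 2.91 ± 0.207. The log2 change in ST7 against GFP was -5.44 after the shift (limma, SE 0.19, n = 2 per group, adjusted p = 1.7e-05) and -9.84 as scanned (adjusted p = 4.3e-06). The fold was at least 8.56 lower after the shift and at least 181 lower as scanned. These lower limits compare the GFP mean with the dimmest probe that each ST7 array marked well above background, or with the probe's own signal where that was higher. By RT-PCR the study reported a loss of the Sdc1 transcript in ST7, with like levels in control and LT7 cells.

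Sdc2 (NM_008304) is the main syndecan of mesenchymal cells and lies on chromosome 15 at 32920723 to 33034721. The brighter probe gave 4219 and 4310 on the GFP arrays, 7004 and 5548 on those of LT7, and 2.83 and 3.17 on those of ST7. The weaker probe gave 3160 and 3129 on the GFP arrays, 4145 and 5073 on those of LT7, and 2.85 and 3.15 on those of ST7. Both probes were thus higher on each LT7 array than on each GFP array and were not well above background in ST7. The brighter probe changed in ST7 against GFP by -6.08 after the shift (SE 0.22, adjusted p = 1.7e-05), at least 13.7-fold lower, and by -10.48 as scanned, at least 290-fold lower. The weaker changed by -5.64 (adjusted p = 1.7e-05), at least 10.1-fold lower, and by -10.04 as scanned.

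Sdc3 (NM_011520), on chromosome 4 at 130792537 to 130826318, encodes the syndecan best known from nerve and muscle. Its brighter probe gave 138 and 180 on the GFP arrays, 93.2 and 141 on those of LT7, and 115 and 110 on those of ST7, well above background on all 6 arrays. The ST7 values lay below both GFP values and between the LT7 values. The weaker probe gave 243 and 227 on the GFP arrays, 274 and 279 on those of LT7, and 2.85 and 6.34 on those of ST7, too dim to be well above background. In ST7 against GFP the brighter probe was 3.91 higher on the log2 scale after the shift (SE 0.35, adjusted p = 0.00016), while as scanned the change was -0.49 and did not pass the test (adjusted p = 0.25). Limma called the weaker lower on both scales, at -1.39 after the shift (SE 0.39, adjusted p = 0.017) and -5.79 as scanned (adjusted p = 0.00021). Its call after the shift was lost without GFP replicate 1 (adjusted p = 0.063) and without GFP replicate 2 (adjusted p = 0.083). After the shift neither a fold nor a direction can be given for the weaker probe, since the limit is under 1. As scanned the brighter probe was thus 1.40-fold lower and the weaker at least 15.9-fold lower, and the transcript level of Sdc3 in ST7 cannot be given a direction from these probes. In LT7 against GFP the pair differed by -0.70.

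Sdc4 (NM_011521), on chromosome 2 at 164424247 to 164443188, encodes the syndecan of focal adhesions. The brighter probe gave 4021 and 3577 on the GFP arrays, 8007 and 3053 on those of LT7, and 7.87 and 25.2 on those of ST7, where only replicate 2 was well above background. The LT7 values lay on both sides of the GFP values, and the higher was 2.62 times the lower. The weaker probe gave 825 and 850 on the GFP arrays, 590 and 560 on those of LT7, and 2.83 and 3.23 on those of ST7, not well above background. It was lower on both LT7 arrays than on both GFP arrays, as the brighter was on LT7 replicate 2 alone. The brighter probe changed in ST7 against GFP by -3.67 after the shift (SE 0.67, adjusted p = 0.0031), or 12.8-fold with 1 of the ST7 arrays near background, and by -8.07 as scanned (adjusted p = 0.00056). After the shift the change was -2.87 without ST7 replicate 1 (adjusted p = 0.0065) and -4.48 without ST7 replicate 2 (adjusted p = 0.0012), so its size rests on the array while its direction was the same in both. The weaker changed by -3.72 (SE 0.21, adjusted p = 2.6e-05), at least 2.70-fold lower, and by -8.12 as scanned, at least 56.9-fold lower.

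Gpc1 (NM_016696), on chromosome 1 at 92831645 to 92860211, encodes a glypican found in most tissues. Its signal was 13757 and 13674 on the GFP arrays, 23435 and 11227 on those of LT7, and 1500 and 1428 on those of ST7, well above background on all 6 arrays. The ST7 values lay below all others before scaling, and the LT7 values lay on both sides of GFP. As scanned the change in ST7 against GFP was -3.23 (SE 0.38, adjusted p = 0.0016), 9.37-fold lower, whereas after the shift it turned to 1.17 (SE 0.36, adjusted p = 0.025), 2.25-fold higher. The call after the shift was lost when any 1 of the 4 GFP and ST7 arrays was left out, with an adjusted p of 0.11 without GFP replicate 1, 0.068 without GFP replicate 2, 0.083 without ST7 replicate 1 and 0.059 without ST7 replicate 2.

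Gpc4 (NM_008150), on chromosome X at 52051007 to 52164923, encodes a glypican of embryonic and mesenchymal tissues. Its signal was 5304 and 4086 on the GFP arrays, 6912 and 5144 on those of LT7, and 177 and 179 on those of ST7, well above background on all 6 arrays. The GFP and LT7 values overlapped as scanned, and the ST7 values lay far below both. The means were 4695 ± 861 (SD, n = 2), 6028 ± 1250 and 178 ± 1.33. The change in ST7 against GFP was -4.71 as scanned (SE 0.24, adjusted p = 6e-05), 26.2-fold lower, and -0.31 after the shift (SE 0.22, adjusted p = 0.22). Against LT7 it was -0.77 after the shift (adjusted p = 0.017), a call lost without LT7 replicate 1 (adjusted p = 0.068), without ST7 replicate 1 (adjusted p = 0.066) and without ST7 replicate 2 (adjusted p = 0.081), and -5.07 as scanned (adjusted p = 4.7e-05).

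Gpc3 (NM_016697), the glypican lost in a human overgrowth syndrome, stands beside Gpc4 on chromosome X at 52272426 to 52613974. Its signal was 31.0 and 37.0 on the GFP arrays, 56.9 and 34.2 on those of LT7, and 2.83 and 3.15, not well above background, on those of ST7. The LT7 values lay on both sides of GFP replicate 2, and the ST7 values were the lowest. As scanned the change in ST7 against GFP was -3.50 (adjusted p = 0.00044), at least 2.30-fold lower. After the shift it turned to 0.89 (SE 0.31, adjusted p = 0.037), a higher value from arrays on which the probe was not well above background, and for which no fold is given. That call was lost without GFP replicate 1 (adjusted p = 0.16) and without either ST7 array (adjusted p = 0.093 and 0.12).

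Gpc6 (NM_011821) has roles in the growth plate and lies near Gpc5 on chromosome 14 at 116924920 to 117979529. The brighter probe gave 51.2 and 73.5 on the GFP arrays, 83.3 and 156 on those of LT7, and 2.92 and 5.53 on those of ST7. The weaker gave 57.7 and 38.6 on the GFP arrays, 74.4 and 184 on those of LT7, and 2.98 and 3.47 on those of ST7. On both probes each LT7 array lay above both GFP arrays, and the ST7 arrays were not well above background. The brighter probe changed in ST7 against GFP by -3.93 as scanned (adjusted p = 0.0018), at least 4.17-fold lower, and by 0.47 after the shift (adjusted p = 0.41).

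Gpc2 (NM_172412), a glypican of the developing nervous system, and Gpc5 (NM_175500) were not well above background on any array. Gpc2 gave 3.10 and 4.46 on the GFP arrays, 4.76 and 5.08 on those of LT7, and 5.41 and 7.68 on those of ST7, and Gpc5 gave 2.83 and 3.07, 4.51 and 4.62, and 2.92 and 5.45. No fold is given for either gene. After the shift limma nevertheless called both higher in ST7 than in GFP, by 5.19 and 4.83, and as scanned neither passed (adjusted p = 0.082 and 0.39).

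Counted over the 14 probes, 11 passed limma's test in ST7 against GFP after the shift. Of these, 6 were lower, all of them syndecan probes, where 19.8% of the 61306 probes tested were lower. The other 5 were higher (the brighter Sdc3 probe, Gpc1, Gpc2, Gpc3 and Gpc5), where 70.7% of all probes were higher. Of these 5, only the brighter Sdc3 probe and Gpc1 were well above background on an ST7 array. Among the 6 lower, only the brighter Sdc4 probe was, and the weaker Sdc3 probe has no fold after the shift. For probes not well above background in ST7, syndecan or glypican, the sign after the shift depends on how bright they were in GFP. As scanned 11 of the 14 were lower and 0 higher, where 41.7% of all probes were lower and 4.28% higher, and 1 was higher at an unadjusted p under 0.05. The 3 that did not pass as scanned were the brighter Sdc3 probe, Gpc2 and Gpc5. With quantile normalization 8 were lower and 2 higher, against 24.6% and 33% of all probes. The median change of the 14 probes was 0.08 after the shift and -4.32 as scanned, against 3.72 and -0.68 over all probes. These sets are unlike in brightness. On all GFP and LT7 arrays 12 of the 14 were well above background, against 26925 of 61307 probes, so the shares and medians over all probes include many dim ones.

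In ST7 against LT7, 10 of the 14 passed after the shift, 7 lower and 3 higher, where 19.7% of all probes were lower and 71% higher. The 3 higher were the brighter Sdc3 probe, Gpc2 and Gpc5, and Gpc2 and Gpc5 were not well above background on any array. Of the 7 lower, only the brighter Sdc4 probe and Gpc4 were well above background on an ST7 array. The weaker Sdc3 probe, among the 7, has no fold after the shift, since its limit is under 1. As scanned 11 were lower and 0 higher, where 54.1% and 5.17% of all probes were. This comparison shares the ST7 arrays with the one against GFP. Sdc1 was at least 10.4-fold lower than in LT7 after the shift and Sdc2, on its brighter probe, at least 21.5-fold, and as scanned these limits were 205-fold and 423-fold. Gpc1 was 11.1-fold lower than in LT7 as scanned (adjusted p = 0.0012) and changed by 0.83 after the shift (adjusted p = 0.074, and 0.0079 without LT7 replicate 1). The weaker Gpc6 probe passed as lower without LT7 replicate 1 (adjusted p = 0.0051), against an adjusted p of 0.14 with all arrays.

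**Figure D2:**
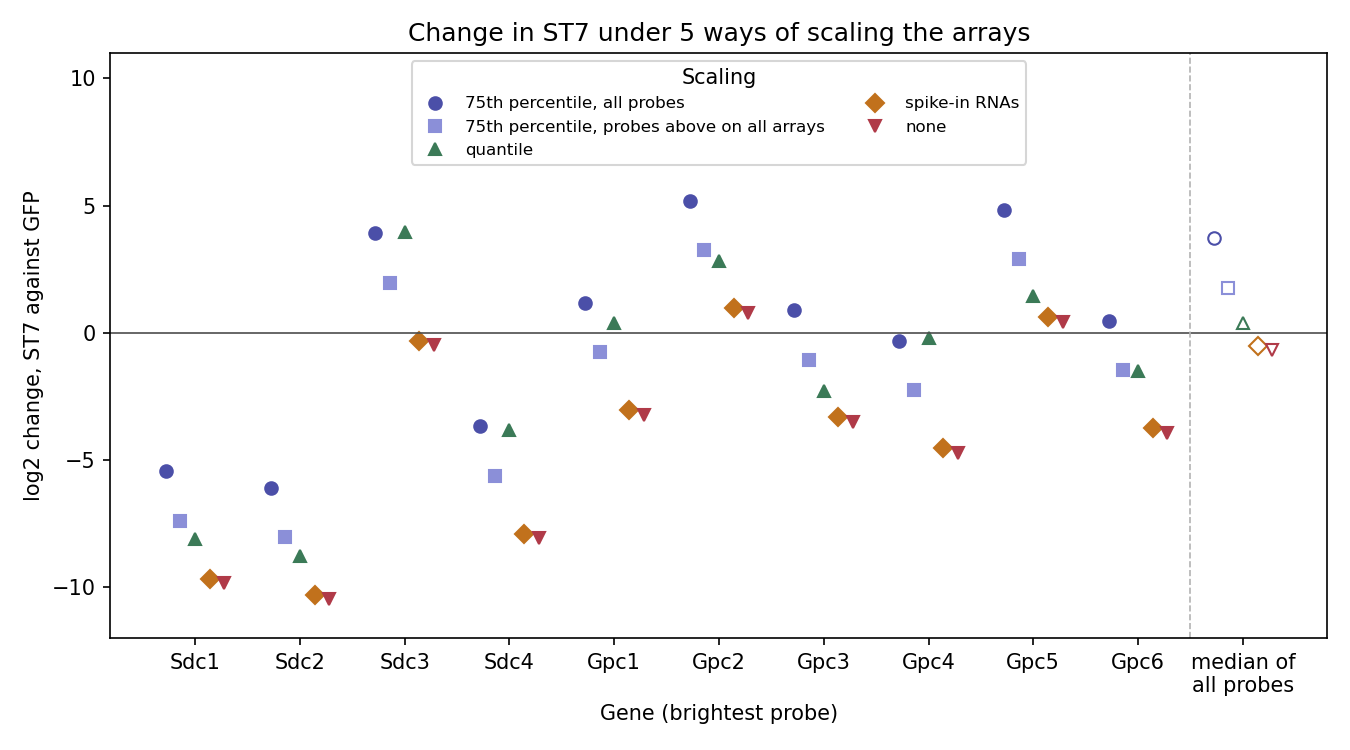
The log2 change of each gene's brightest probe in ST7 against GFP under 5 scalings of the arrays (filled marks), with the median change of all probes under each (open marks). Sdc1, Sdc2 and Sdc4 lie below 0 under all 5 scalings, Gpc4 too, and the marks of Sdc3, Gpc1, Gpc3 and Gpc6 lie on both sides of 0.

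Since a shift by a constant leaves the order of the probes within a comparison as it is, the members were also placed among the 32115 probes well above background on both GFP arrays. The share of these probes with a lower change in ST7 was 8.21% for Sdc1, 5.96% and 7.41% for the Sdc2 pair, and 17.4% and 17.1% for the Sdc4 pair. It was 81.6% for the brighter and 34.3% for the weaker Sdc3 probe. The glypicans lay near the middle, with 56.0% for Gpc1, 42.9% for Gpc4, 53.5% for Gpc3, and 49.5% and 50.1% for the Gpc6 pair. For the probes not well above background in ST7 this place depends on how bright they were in GFP.

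In LT7 against GFP limma called 0 of the 14 probes, where 0.176% of the 61307 probes were called. At an unadjusted p under 0.05 there were 3, both Sdc2 probes and the weaker Gpc6 probe, all higher, where 27.2% of all probes passed. By the study's fold rule, read here as a log2 ratio to the GFP mean of at least 0.8 on each array with a mean over 1, or the same below 0, 0 of the 14 were called up or down, where 2.89% of all probes were up and 3.02% down. On 9 of the 14 probes both LT7 arrays lay above both GFP arrays after the shift, where 38% of all probes did, and on 1, the weaker Sdc4 probe, both lay below, where 15% did. As scanned Gpc4 left the first count, which became 8, where 33.1% of all probes were higher and 20.8% lower. Of the 9, Gpc2 and Gpc5 were not well above background on any array. The lowest signal marked well above background was 13.5 on each GFP array, and 20.0 and 22.3 on the LT7 arrays. The shares over all probes include dim ones, and the part of this difference in them was not tested.

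The highest LT7 changes were those of Gpc6, at 0.99 (SE 0.51, adjusted p = 0.30) on the brighter probe and 1.41 (SE 0.49, adjusted p = 0.14) on the weaker. This order rested on LT7 replicate 2, without which the brighter Gpc6 probe gave 0.49, below the brighter Sdc4 probe at 1.12, Gpc1 at 0.82 and Gpc3 at 0.80. The Sdc2 pair gave 0.65 (SE 0.22, adjusted p = 0.13) and 0.64 (SE 0.23, adjusted p = 0.16), the closest agreement of a pair. For Sdc1 the change was 0.28 (SE 0.19, adjusted p = 0.43), and for Gpc4 0.46 (SE 0.22, adjusted p = 0.26). The Sdc4 pair gave 0.48 (SE 0.67, adjusted p = 0.73) and -0.44 (SE 0.21, adjusted p = 0.26), opposite in sign. Without LT7 replicate 1, the array scanned alone, the change of the brighter Sdc4 probe turned to -0.16 and that of Gpc1 from 0.34 to -0.14. That of Gpc3 went from 0.48 to 0.16, that of Gpc4 to 0.29, and that of the brighter Sdc3 probe from -0.36 to -0.0097. Scaled by the spike-in RNAs, the median of all probes in LT7 was -2.05 and the changes of all 10 brightest probes were below 0, while after the shift only Sdc3 was.

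**Figure D3:**
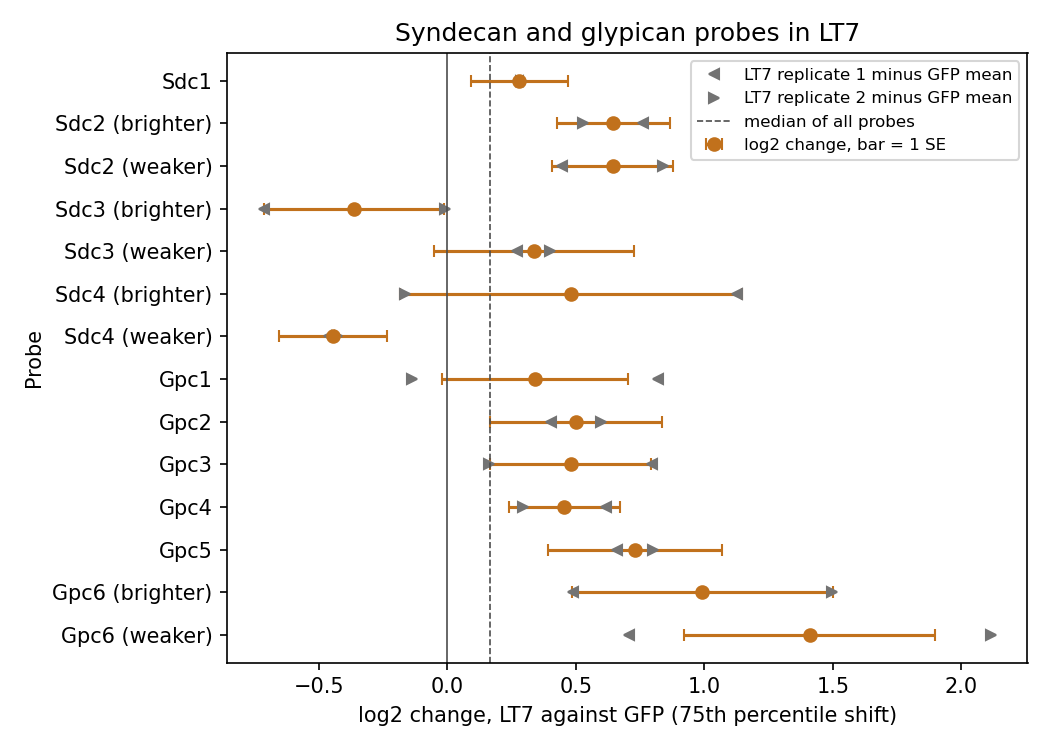
The log2 change of each probe in LT7 against GFP after the 75th percentile shift, with 1 SE, and each LT7 array's difference from the GFP mean (arrowheads). The dashed line marks the median of all probes, 0.17, and only the brighter Sdc3 probe and the weaker Sdc4 probe lie below 0.

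Heparan sulfate chains are built on the core proteins in the Golgi, and 64 genes of 9 role groups that make, change, break or meet these chains or cores were examined on their brightest probes. In LT7 against GFP limma called 0 of the 64, with changes between -2.17 and 2.63 and a median of 0.10, against 0.17 over all probes, and 0 were called as scanned. In ST7 against GFP it called 33 lower and 25 higher after the shift, with 6 not called and a median of -1.33, and as scanned 46 lower and 1 higher with a median of -5.73. Of all probes, 19.8% were lower and 70.7% higher after the shift with a median of 3.72, and 41.7% lower and 4.28% higher as scanned with a median of -0.68, and the counts of each role group below stand beside these same shares. Of the 64, 46 were well above background on all GFP and LT7 arrays, and of these 34 (73.9%) were on neither ST7 array and 9 on both, where 53.1% of all probes were on neither and 41.2% on both. In the role groups below, a change or fold given without a scale is after the shift.

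Chain synthesis starts with xylose on the core protein. Of 6 genes of this linkage region, 2 were higher and 2 lower in ST7 after the shift, and 0 higher and 5 lower as scanned. Xylt2, a xylosyltransferase, fell from a mean of 3089 in GFP to 6.80, not well above background, a change of -4.43 after the shift and at least 9.94-fold. Xylt1, its paralogue, gave 13.2 and 15.4 on the GFP arrays, 7.76 and 15.6 on those of LT7, and 35.4 and 26.0 on those of ST7. Of the GFP and LT7 arrays, only GFP replicate 2 held it well above background. Its change in ST7 against GFP was 5.49 after the shift (adjusted p = 0.00011) and 1.09 as scanned (adjusted p = 0.088). B4galt7, which adds the first galactose, changed by -0.75 after the shift (adjusted p = 0.017) and by -5.15 as scanned. Its ST7 signals, 2.88 and 3.11, were not well above background. After the shift no fold can be given for it, since the limit is under 1, and as scanned it was at least 7.23-fold lower. B3gat3, which adds the glucuronic acid that completes the linker, changed by 2.59 after the shift (adjusted p = 0.00022) and by -1.81 as scanned (adjusted p = 0.0023).

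The chain is then extended by the exostosins, which act as a complex of Ext1 and Ext2. The signal of Ext1 was 2832 and 2958 on the GFP arrays, 4605 and 3673 on those of LT7, and 794 and 829 on those of ST7. That of Ext2 was 8302 and 7012 on the GFP arrays, 7047 and 7085 on those of LT7, and 2.91 and 3.17, not well above background, on those of ST7. The subunits thus differed in ST7, where Ext2 changed by -6.89 after the shift (SE 0.19, adjusted p = 1.7e-05), at least 24.6-fold lower, and Ext1 by 2.57 after the shift (adjusted p = 0.00013) and -1.83 as scanned (adjusted p = 0.00089). Extl3, which adds the first glucosamine, changed by -6.09, at least 14.4-fold lower. Extl2 gave 756 and 830 on the GFP arrays, and 5.70, not well above background, and 27.5 on those of ST7. Its change was -1.59 after the shift (adjusted p = 0.093) and -5.99 as scanned (adjusted p = 0.0027). Over the 5 genes of this group 2 were lower and 2 higher after the shift, and 5 lower as scanned.

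Of 16 genes that modify the chain, 10 were higher and 6 lower after the shift, and 1 higher and 6 lower as scanned, while 13 of the 16 had no signal well above background on an ST7 array. The gene that was higher by both scales was Hs3st3b1, a 3-O-sulfotransferase whose products include sites for herpes virus entry. Its signal was 8.62 and 10.54, not well above background, in GFP, 48.1 and 63.4 on those of LT7, and 2352 and 2312 on those of ST7. In ST7 against GFP it rose by 12.33 on the log2 scale after the shift (SE 0.30, adjusted p = 1.7e-05), at least 3646-fold, and by 7.93 as scanned (adjusted p = 8.9e-06), at least 173-fold. It was also the gene with the highest LT7 change of the 64, 2.63, which limma did not call (adjusted p = 0.079). Hs6st1, a 6-O-sulfotransferase, changed by -5.35 in ST7, at least 8.47-fold lower, and Glce, the epimerase that makes iduronic acid, by -4.43, at least 7.96-fold lower. Ndst3, an N-deacetylase and N-sulfotransferase, changed by 5.35 after the shift (adjusted p = 0.00057) and 0.95 as scanned (adjusted p = 0.36). It was not well above background on any GFP or LT7 array. Its ST7 signals were 17.9 and 24.7, where the dimmest probes marked well above background gave 13.9 and 15.5.

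The sulfate donor PAPS is made by Papss1 and Papss2 and carried into the Golgi by Slc35b2 and Slc35b3. Papss1 changed by -4.21, at least 9.77-fold lower, Slc35b2 by -5.55, at least 29.5-fold lower, and Slc35b3 by -4.03, at least 3.39-fold lower, all 3 called. Papss2 gave 20.3 and 19.2 in GFP and 18.7 and 21.9 in ST7, a change of 4.44 after the shift and 0.04 as scanned (adjusted p = 0.88). On the LT7 arrays it gave 4.91 and 4.65, not well above background. Outside the cell, Sulf2, an endosulfatase that trims the chains, was at least 4.16-fold lower after the shift (adjusted p = 3.2e-05). In this group of 5 the other 4, called higher after the shift, did not rise well above background on an ST7 array, and as scanned 0 were higher and 2 lower.

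Of 7 lysosomal enzymes that break heparan sulfate down, 6 were lower after the shift and 7 as scanned. Ids, whose loss causes Hunter syndrome, changed by -6.38, at least 17.3-fold lower, and Sgsh by -4.01, at least 3.30-fold. Naglu, well above background on 1 of the ST7 arrays, changed by -1.85 after the shift and -6.24 as scanned. Of 6 genes in the shedding of syndecan ectodomains, 4 were lower after the shift and 5 as scanned. Mmp14, the membrane metalloproteinase MT1-MMP, changed by -8.10, at least 55.1-fold lower, and Timp3, an inhibitor of the sheddases, by -7.28, at least 50.4-fold lower. Adam17 changed by -4.05, at least 3.37-fold lower. Mmp9 changed by -2.05, at least 1.03-fold lower after the shift and at least 21.7-fold lower as scanned.

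Of 9 cytoplasmic partners of syndecans on the array, 5 were lower and 3 higher after the shift, and 7 lower as scanned. Sdcbp (syntenin, a PDZ protein that binds the syndecan tail) gave 9851 and 10941 on the GFP arrays, 17623 and 11462 on those of LT7, and 5.08 and 3.15 on those of ST7, at least 33.4-fold lower after the shift (a change of -6.94, adjusted p = 1.9e-05). Gipc1, a PDZ protein that binds Sdc4, changed by -4.37, at least 4.30-fold lower. Cask, a scaffold that binds the same tail motif, gave 1941 and 1737 on the GFP arrays, 3906 and 2409 on those of LT7, and 1213 and 1339 on those of ST7, a change of 3.87 after the shift and -0.53 as scanned (adjusted p = 0.22). Pdcd6ip, which works with syntenin in exosome budding, changed by 4.91 after the shift and 0.51 as scanned (adjusted p = 0.35).

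Of 6 other proteoglycans that carry heparan sulfate, 4 were lower and 1 higher after the shift, and 6 lower as scanned. Agrn, a basement membrane proteoglycan, changed by -6.71, at least 55.5-fold lower, and Cd44, a part-time proteoglycan and hyaluronan receptor, by -6.38, at least 17.3-fold lower. Tgfbr3 changed by -0.19 after the shift (adjusted p = 0.43) and by -4.59 as scanned (adjusted p = 1.7e-05). Its ST7 signals, 2.76 and 3.05, were not well above background, and after the shift the limit of its fold is under 1. Nrp1 changed by 2.62 after the shift and -1.78 as scanned (adjusted p = 0.0017).

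**Figure D4:**
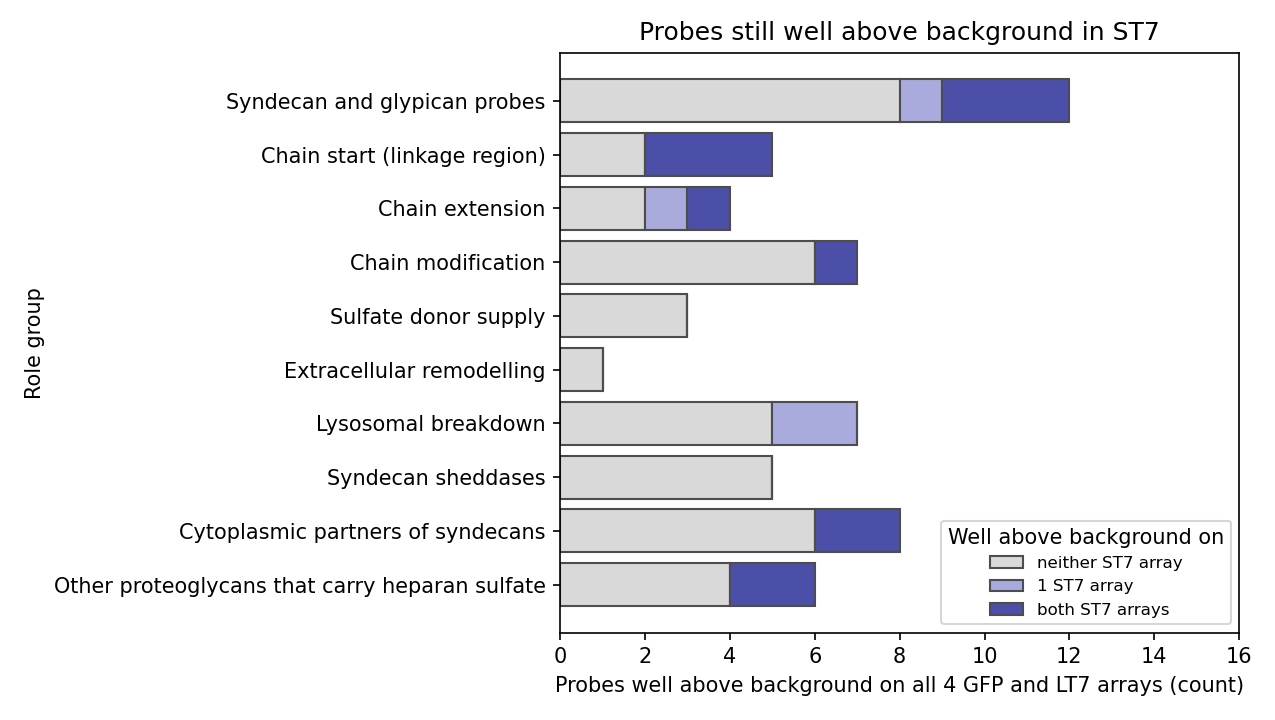
Number of probes well above background on all 4 GFP and LT7 arrays for the 14 syndecan and glypican probes and, by brightest probe, the 9 role groups, split by whether they were well above background on neither, 1 or both ST7 arrays. Of the genes counted in the sulfate donor, extracellular (1 gene), lysosomal and sheddase groups, none was on both ST7 arrays, and 3 of 5 linkage genes were. Papss2, a sulfate donor gene on both ST7 arrays, is not counted, since it was not well above background in LT7.

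The genes most like each member across the 6 arrays were sought among named genes well above background in the same groups, by the root mean square difference of the 6 log2 signals as scanned, each centred on its mean. For Sdc1 these were Gosr2 (0.04) and Aff1 (0.04) of 10352 candidates, and for Sdc2 Gpr177 (0.07) and Rragc (0.09). For Sdc4 they were Snx4 (0.20) and Rbbp8 (0.22), for Gpc3 Pole2 (0.08) and Fam107b (0.10), and for Gpc6 Lgals2 (0.32) and Fam19a5 (0.34). Among the 4029 candidates well above background on all arrays, they were Upf2 (0.08) and Fam118b (0.10) for Gpc1, Zfp358 (0.07) and Snd1 (0.08) for Gpc4, and Ifna13 (0.09) and Lsm12 (0.12) for Sdc3. The likeness is a description over 6 arrays. For Sdc1, Sdc2, Gpc3 and Gpc6 the ST7 signals are only upper limits, so that their distance there depends on how bright the member was in GFP, and Pole2 and Fam107b gave 49.0 to 151.9 in ST7 where Gpc3 was near background.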

How the data were processed

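The deposited scanner files give, per the file headers, 1 intensity per spot, the processed signal of Agilent Feature Extraction 10.5.1.1 with its background subtracted by the authors' software. The deposited series matrix holds log2 values after the authors' percentile shift in GeneSpring, and its column medians of -4.24 to -2.20 show no centring of arrays beyond it. On each array 5 to 13 probes were off by over 0.01 from the log2 scanner signal minus a constant. Control spots and outlier spots were dropped, repeats of a probe averaged on the log2 scale, and every array lowered by its own 75th percentile. A probe counted as well above background where the scanner software marked most of its spots so. The tests were those of limma 3.58.1 (R 4.3.3), fitted to the 6 arrays together, and p-values were adjusted across all probes by Benjamini-Hochberg, with 0.05 as the threshold. With 2 arrays a group, their number limits the precision. The fit of LT7 against GFP was tested on simulated data. That simulation held no change in ST7 and no array-wide drop of signal, so it does not bear on the ST7 tests. The members, gene lists and tests were chosen with earlier results of these data known. For each role group the genes named were those called in LT7 and, among those that both arrays of the higher group showed well above background, the 2 highest and 2 lowest changes in ST7. The values of 1 gene that this rule names are not reported here. Replicates were from different passages per the study's text, and p-values measure the spread between these. The scaling, background correction, probe filter, arrays, block and fold rule were varied, and 1 alternative (no scaling, without LT7 replicate 1) was chosen after seeing the data. RefSeq tables of GRCm38.p6 gave positions and promoters.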

Additional observations from a re-analysis of the deposited data

How the results depend on the processing

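The counts of members called kept within 1.5 times of 0 (LT7 against GFP), 11 (ST7 against GFP) and 10 (ST7 against LT7) under the alternatives run, except with scaling on the spike-in RNAs, where they were 6 for ST7 against GFP and 5 for ST7 against LT7 and where LT7 replicate 1 stood 4.39 above the lowest array. Leaving out 1 array at a time gave 8 to 11 for ST7 against GFP, 9 to 11 for ST7 against LT7 and 0 for LT7 against GFP. With the replicate number as a block the counts were 10, 10 and 0. Deviations of same-numbered arrays correlated at 0.09 (GFP and LT7), 0.33 (GFP and ST7) and -0.03 (LT7 and ST7) over 11084 probes, so the numbers were not taken to pair the arrays. The calls of Sdc1, Sdc2 and Sdc4 in ST7 kept their sign and their side of the threshold under every alternative run, with changes against GFP of -9.84 to -3.04, -10.48 to -3.87 and -8.07 to -2.87. In ST7 against GFP these changes turned to the opposite sign. Without scaling they were -0.49 for Sdc3, -3.23 for Gpc1, -3.50 for Gpc3 and -3.93 for Gpc6, the same without LT7 replicate 1. On the spike-in RNAs they were -0.31 for Sdc3, -3.04 for Gpc1, -3.32 for Gpc3 and -3.75 for Gpc6. With a percentile of only the probes well above background they were -0.77 for Gpc1, -1.05 for Gpc3 and -1.47 for Gpc6. With quantile normalization they were -2.30 for Gpc3 and -1.49 for Gpc6, and with normexp -0.75 for Gpc1. In ST7 against LT7 the changes that turned were, without scaling, -0.03 for Sdc3, -3.47 for Gpc1, -3.89 for Gpc3 and -0.20 for Gpc5, and in an alternative chosen after seeing the data, without scaling and without LT7 replicate 1, -0.33, -2.94, -3.52 and -0.21. They were -1.17 for Gpc1 and -1.58 for Gpc3 on the spike-in RNAs, -1.10 and -1.51 with the percentile of such probes, and -0.036 and -2.80 with quantile normalization. With normexp they were -1.15 for Gpc1 and 0.83 for Gpc6. The filter on dim probes gives no value for Gpc2 and Gpc5, which it removes. In LT7 against GFP no member was called under any alternative run, and the spike-in RNAs gave -1.94 for Sdc1, -1.57 for Sdc2, -1.74 for Sdc4, -1.88 for Gpc1, -1.72 for Gpc2, -1.74 for Gpc3, -1.76 for Gpc4, -1.49 for Gpc5 and -1.22 for Gpc6. There Sdc4 ran from -0.16 to 1.12 and Gpc1 from -0.14 to 0.82 as single arrays were left out, the lowest values being those without LT7 replicate 1 and with the scan as a block, and they were -0.31 and -0.29 without scaling and that array, and Gpc5 was -0.050 with quantile normalization. Gpc3 in ST7 against GFP lost its call with the replicate block (adjusted p = 0.068). Beyond the values made by the scaling itself the cause was not tested. Signals not well above background on the ST7 arrays limit Sdc1, Sdc2, Gpc3 and Gpc6 there to a lower limit of the fold.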

Other observations

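Probes outside the 10 gene names are annotated on the array as similar to members. LOC100047608, described as similar to glypican 4, gave 1001 and 786 on the GFP arrays, 1292 and 1027 on those of LT7, and 149.9 and 146 on those of ST7, well above background on all 6 arrays. As scanned its change in ST7 against GFP was -2.58, where that of the Gpc4 probe was -4.71, and the difference was not tested. Gm14724 and LOC100040304, described as similar to syndecan-1, lay between 2.78 and 7.74 and were well above background on 0 arrays.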
